A study of Mus musculus with 6 samples.

Results

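The genes described here are 9 transcriptional coactivators and histone deacetylases of mTECs, an epithelial line from mouse kidney tubules. They act as cofactors of transcription driven by STAT proteins and NF-κB. They are the acetyltransferases Ep300, Crebbp, Kat2a and Kat2b, the deacetylases Hdac1, Hdac2, Hdac3 and Sirt1, and the nuclear receptor coactivator Ncoa3. They were chosen by symbol in the GENCODE M21 annotation of the mouse genome, and each of the 9 had a row among the 22442 genes measured. RNA was sequenced from 6 libraries of mTECs, all exposed for 24 h to 20 μg/ml of LPS, the lipopolysaccharide of bacterial cell walls. Cells of the 3 LPS-labelled libraries had first received a negative control, and cells of the 3 LPSKD-labelled libraries an RNA meant to silence Stat3. No library without LPS was analysed here, so these values say nothing of the response to LPS itself. The labels call the cells magnetically sorted and the silencing RNA an siRNA, whereas the study describes an immortalised line and lists an shRNA against mouse Stat3. Nothing in the labels says that the libraries came from separate experiments, so the p-values measure only the spread between these libraries.

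Acetyltransferases transfer an acetyl group from acetyl-CoA to lysines of histones and other proteins, and deacetylases remove it. Ep300 and Crebbp encode the paralogs p300 and CBP, which many transcription factors recruit to enhancers and promoters. Kat2a and Kat2b encode GCN5 and PCAF, the alternative catalytic subunits of the SAGA and ATAC complexes. Hdac1 and Hdac2 work in the Sin3, NuRD and CoREST corepressor complexes, Hdac3 works in the NCoR/SMRT complex, and Sirt1 is a deacetylase that consumes NAD. Ncoa3 encodes a p160 coactivator that brings p300 and CBP to nuclear receptors. p300 and CBP acetylate STAT3 itself, and class I deacetylases and SIRT1 can reverse it. The study asked elsewhere whether p300 and CBP drive Stat3 transcription through acetylation of histone H3. The comparison available in these libraries is the converse one, whether the level of the cofactor transcripts differed where Stat3 was to be silenced.

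The designed RNAs of the study show which transcripts it aimed at. The shRNA against Stat3 bears on the group labels, and the siRNAs against Ep300 and Crebbp, which were not used in these libraries, show how distinct these paralogs are at the targeted site. They read, 5′ to 3′:
Stat3 shRNA: caggtatcttgagaagccaatggaa
Ep300 siRNA: ggauuaaguuugauaaaua
Crebbp siRNA: gaugcUgcGucCaaacaua
Ep300 at the site closest to the Crebbp siRNA: gatgcAgcCtcGaaacata
Capitals mark the 3 bases at which the Crebbp siRNA and the closest Ep300 stretch differ, T6A, G9C and C12G, with the base of the siRNA written as DNA first and positions counted from 1 at its 5′ end. On GRCm38, the Stat3 sequence lies in coding exon 4 of 24 at chr11:100908063-100908087 on the minus strand and matched 4 of the 14 annotated Stat3 transcripts. The Ep300 siRNA lies in coding exon 2 of 31 at chr15:81601153-81601171 on the plus strand. The Crebbp siRNA lies in coding exon 2 of 31 at chr16:4180020-4180038 on the minus strand, and its closest Ep300 stretch in coding exon 2 of Ep300 at chr15:81601030-81601048. Each of the 3 designed sequences matched transcripts of its own gene and of no other gene among 141767 transcripts. The Stat3 sequence had at least 8 mismatches to every transcript of the 9 cofactors, and the Ep300 siRNA had 6 mismatches to Crebbp.

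Sequence relations decide how surely a fragment can be given to a gene, so the longest stretch of coding sequence shared exactly by each pair of relatives was read from the GENCODE M21 transcripts:
Ep300 and Crebbp: tttgaacaagaaattgaccctgtcatgca
Kat2a and Kat2b: tggagaatgtgtcagagga
Hdac1 and Hdac2: ccagataatatgtctga
The stretch of Ep300 and Crebbp is 29 bases long and lies in exon 18 of both genes, at chr15:81631797-81631825 on the plus strand and chr16:4108064-4108092 on the minus strand. That of Kat2a and Kat2b is 19 bases long, in exon 3 of both, at chr11:100711442-100711460 (minus) and chr17:53624370-53624388 (plus). That of Hdac1 and Hdac2 is 17 bases long, in exon 3 of both, at chr4:129528950-129528966 (minus) and chr10:36986385-36986401 (plus). No pair of relatives therefore shared a stretch of 31 bases.

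Pseudogenes were a different matter. Of the 1416 distinct stretches of 31 bases in the coding sequences of Hdac1, 1259 (88.9%) also occurred in a transcript of another gene, and 1218 of them occurred in Gm10093, a processed pseudogene at chr17:78491582-78493025. Of the 2474 stretches of Kat2b, 708 (28.6%) occurred in the processed pseudogene Kat2b-ps at chr5:93390602-93393091. For Ep300 the share was 1.10%, all in the processed pseudogene Gm18256, for Ncoa3 it was 0.523% and for Crebbp 0.214%. Kat2a, Hdac2, Hdac3 and Sirt1 shared no such stretch. Gm10093, Kat2b-ps and Gm18256 have no row in the FPKM table, and how fragments that fit several places were counted is not given in the sources used here. The levels of Hdac1 and, to a lesser degree, Kat2b are uncertain for this reason.

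**Figure D1:**
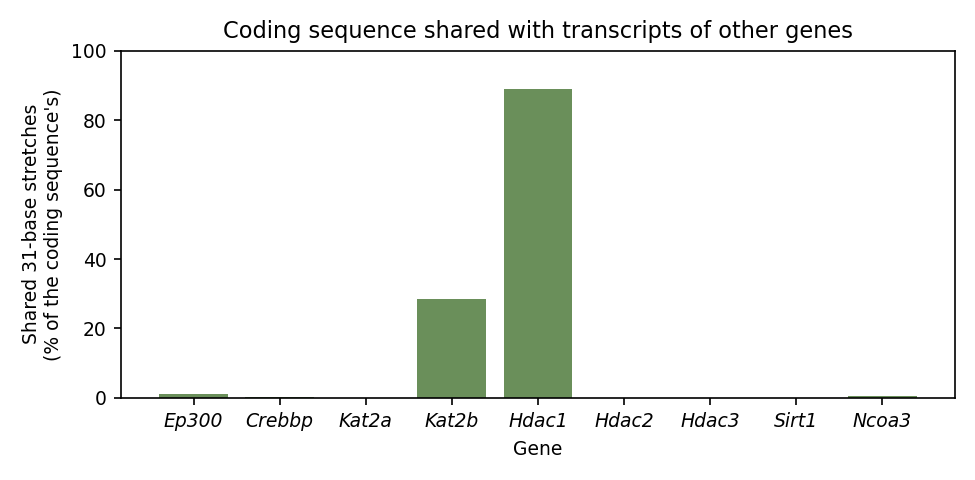
Bars give, for each of the 9 genes, the percentage of the distinct 31-base stretches of its GENCODE M21 coding sequences that also occur in a transcript of another gene. Hdac1 stands at 88.9% and Kat2b at 28.6%, and the other 7 genes are at or below 1.10%.

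The values are FPKM, fragments scaled to gene length and to the fragment total of the library. Comparisons between genes rest on the length used, and those between libraries on the total alone. The library totals recovered from the FPKM values lay between 24084827 and 25422171 fragments. The 11723 genes whose mean reached 0.5 FPKM were tested with limma on log2(FPKM + 0.1). Of these, 379 (3.23%) had an adjusted p under 0.05, with 195 lower and 184 higher in the LPSKD-labelled group. Without 1 of the LPS-labelled libraries the count was 357 (replicate 1), 288 (replicate 2) or 158 (replicate 3). Without 1 of the LPSKD-labelled libraries it was 176 (replicate 1), 190 (replicate 2) or 168 (replicate 3). The median log2 fold change of all genes tested was -0.01. Of 16 markers of tubule epithelium, 10 had a mean of at least 1 FPKM, led by the keratins Krt18, Krt8 and Krt19, while the segment markers Aqp2 and Umod were at 0 in every library and Lrp2, Cubn, Slc12a1 and Slc12a3 were under 1 FPKM. The summed level of these 16 genes was 3821 to 3894 FPKM in the LPS-labelled libraries and 3809 to 3861 FPKM in the LPSKD-labelled ones. Most of this sum is keratin, and 5 of the 11 tested markers passed the test in limma, 4 higher and 1 lower in the LPSKD-labelled group. The higher ones were the kidney transcription factors Pax2 (log2 fold change 0.60) and Pax8 (0.39), the cadherin Cdh16 (0.27) and the water channel Aqp1 (0.93), and the lower one was Krt18 (-0.15). The 10 leukocyte markers summed to 58.9 to 65.4 FPKM and 62.1 to 75.0 FPKM, nearly all of it Csf1r, Lyz2 and Cd68, with 1 of 5 tested past the threshold, Csf1r (log2 fold change 0.45). The 6 fibroblast and pericyte markers summed to 25.7 to 33.6 FPKM and 18.6 to 32.9 FPKM, and the 6 endothelial markers to 3.51 to 6.497 FPKM and 3.73 to 6.36 FPKM, with none of the tested ones past the threshold. The part of these markers in any value below was not tested. In bulk RNA, fewer cells of a kind and less transcript per cell cannot be told apart.

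Stat3, the targeted gene, was at 34.6, 31.4 and 35.2 FPKM in the LPS-labelled libraries, and at 30.8, 35.2 and 34.3 FPKM in the LPSKD-labelled ones. The groups overlapped, with a log2 fold change of -0.01 (SE 0.069, 95% interval -0.17 to 0.14, adjusted p = 0.944, limma). The transcript therefore did not separate the groups, and every direction given below is between labels, not between measured levels of Stat3. The paper reports Stat3 knockdown in mTECs by real-time PCR and western blot, but does not tie those assays to these libraries.

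All 9 cofactors were transcribed in all 6 libraries. Their levels spanned from Crebbp, at the 30.5th percentile of the genes tested, to Hdac2, at the 92.0th. In order of mean FPKM over the 6 libraries they were Hdac2 (144.5), Hdac1 (94.998), Hdac3 (63.3), Kat2a (51.4), Ep300 (27.7), Kat2b (23.9), Ncoa3 (23.3), Sirt1 (17.8) and Crebbp (9.57). The ranges of neighbours in this order did not overlap, except those of Kat2b and Ncoa3. Kat2b was above Ncoa3 in 4 of the 6 libraries, so these neighbours did not differ beyond their spread. Class I deacetylase transcripts were thus the most abundant of the set, though the place of Hdac1 is uncertain because of its pseudogenes. The same uncertainty enters the sums of deacetylases that follow. The summed level of the 4 deacetylases was 2.77, 3.01 and 2.87 times that of the 4 acetyltransferases in the LPS-labelled libraries, and 2.79, 2.90 and 2.75 times in the LPSKD-labelled ones. The groups overlapped in this ratio. The summed deacetylases themselves were at 317.3, 327.3 and 336.9 FPKM in the LPS-labelled libraries, and at 313.6, 317.2 and 311.8 FPKM in the LPSKD-labelled ones. These sums did not overlap, though LPS replicate 1 and LPSKD replicate 2 were nearly level. The difference in these sums was not tested, and the groups did not overlap for 23.8% of all single genes tested either. Hdac1, Hdac2 and Hdac3 each overlapped on their own. The summed acetyltransferases overlapped, at 108.6 to 117.2 and 109.5 to 113.4 FPKM.

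**Figure D2:**
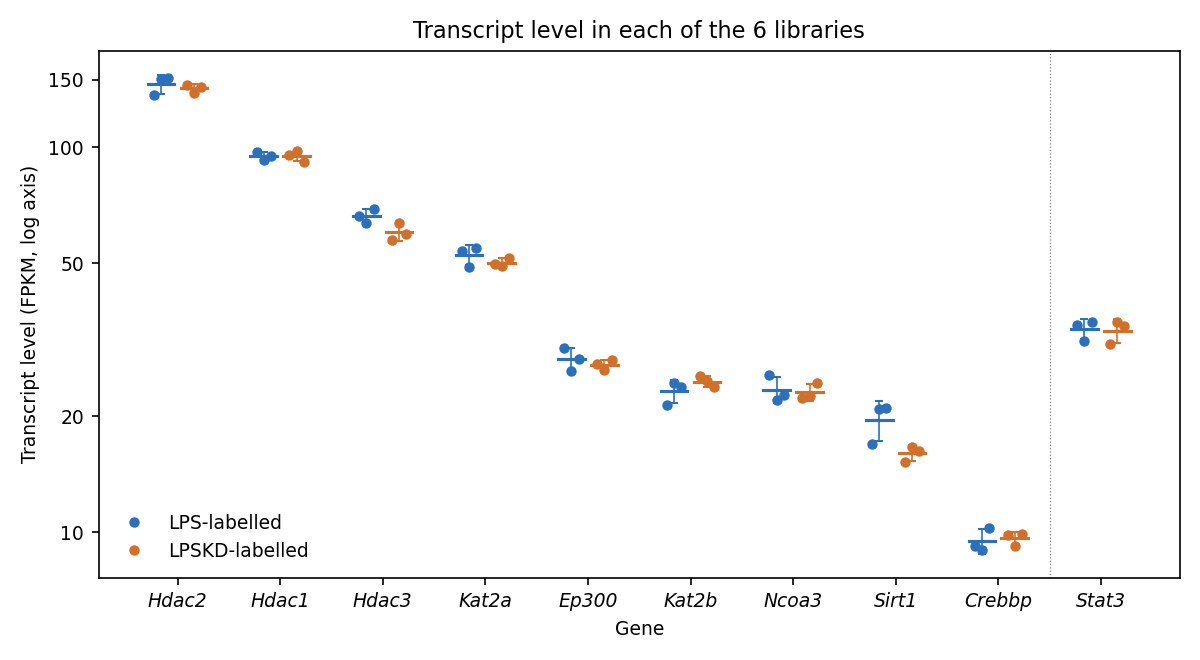
Points are the FPKM values (log axis) of the 9 genes and of Stat3 in the 3 LPS-labelled (blue) and the 3 LPSKD-labelled (orange) libraries, with the mean and SD of each group. Levels fall from Hdac2 at 144.5 FPKM to Crebbp at 9.57 FPKM, and the groups overlap for every gene but Sirt1.

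None of the 9 cofactors passed the test between the groups: 0 of 9 had an adjusted p under 0.05 in limma, against 3.23% of all genes tested. At an unadjusted p under 0.05 the count was 2 of 9, Sirt1 and Hdac3, both lower in the LPSKD-labelled libraries, against 17.6% of all genes. A voom fit in limma to the recovered fragments also called 0 of 9 at an adjusted p under 0.05. Over all genes that fit called 582, against 379 in the main fit. The groups did not overlap for 1 of 9, Sirt1, against 23.8% of all genes. With 1 library left out, non-overlap is more frequent over all genes too. The count was then 2 of 9 without LPS replicate 1 (37% of all genes), LPS replicate 3 (31.2%), LPSKD replicate 2 (33.6%) or LPSKD replicate 3 (32.3%), 1 of 9 without LPSKD replicate 1 (31.7%) and 4 of 9 without LPS replicate 2 (34.5%). The median log2 fold change of the 9 was -0.03, beside -0.01 over all genes tested. For 7 of the 9, the whole 95% interval of the log2 fold change lay within 0.25 of 0.

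Among the acetyltransferases, Ep300 (ENSMUSG00000055024, chr15:81585351-81652077, plus strand) was at 30.1, 26.2 and 28.2 FPKM in the LPS-labelled libraries, and at 27.4, 26.4 and 28.0 FPKM in the LPSKD-labelled ones. The LPS values held both the highest and the lowest of the 6, and the groups overlapped. The log2 fold change was -0.04 (SE 0.063, 95% interval -0.19 to 0.10, adjusted p = 0.783, limma), which puts the level in the LPSKD-labelled libraries between 87.7% and 107.3% of that in the others. These values rested on 4615 to 5438 fragments per library, the deepest coverage among the acetyltransferases.

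Crebbp (ENSMUSG00000022521, chr16:4081328-4213997, minus strand) was at 9.19, 8.99 and 10.3 FPKM in the LPS-labelled libraries, and at 9.82, 9.22 and 9.92 FPKM in the LPSKD-labelled ones. The LPSKD values lay inside the range of the others. The log2 fold change was 0.03 (SE 0.086, 95% interval -0.17 to 0.22, adjusted p = 0.910, limma). Although the lowest of the 9 in FPKM, Crebbp has a long coding sequence and was covered by 1633 to 1855 fragments per library.

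Ep300 exceeded Crebbp in all 6 libraries. The ratio of their FPKM values was 3.27, 2.91 and 2.74 in the LPS-labelled libraries, with a mean of 2.98 ± 0.270 (SD, n = 3), and 2.79, 2.86 and 2.82 in the LPSKD-labelled ones, with a mean of 2.83 ± 0.0338 (SD, n = 3). The LPSKD ratios lay within the range of the others. The log2 ratio differed by -0.07 (exact permutation test, two-sided, p = 0.5, adjusted p = 0.6 over 3 pairs of relatives), in a design of 20 assignments whose smallest p is 0.1. Without LPS replicate 1 the difference was -0.0011, and without LPS replicate 3 it was -0.13.

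Kat2a (ENSMUSG00000020918, chr11:100704746-100712465, minus strand) was at 53.8, 49.0 and 54.8 FPKM in the LPS-labelled libraries, and at 49.7, 49.2 and 51.7 FPKM in the LPSKD-labelled ones. LPS replicates 1 and 3 were the highest of the 6, LPS replicate 2 was the lowest, and the groups overlapped. It differed by a log2 fold change of -0.07 (SE 0.053, 95% interval -0.19 to 0.06, adjusted p = 0.590, limma).

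Kat2b (ENSMUSG00000000708, chr17:53566861-53672720, plus strand) was at 21.4, 24.4 and 23.9 FPKM in the LPS-labelled libraries, and at 25.4, 24.7 and 23.8 FPKM in the LPSKD-labelled ones. LPS replicate 1 was the lowest value and LPSKD replicate 1 the highest, with the other 4 close together and overlapping. Its log2 fold change was 0.09 (SE 0.066, 95% interval -0.06 to 0.24, adjusted p = 0.555, limma), the highest of the 9. Fragments of Kat2b-ps, if counted here, are part of these values.

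Kat2a stood above Kat2b in all 6 libraries. The ratio was 2.51, 2.01 and 2.30 in the LPS-labelled libraries and 1.95, 1.99 and 2.17 in the LPSKD-labelled ones. The mean was 2.27 ± 0.2501 (SD, n = 3) and 2.04 ± 0.117 (SD, n = 3), and the groups overlapped, since LPS replicate 2 fell between the LPSKD values. The log2 ratio differed by -0.15 (exact permutation test, two-sided, p = 0.2, adjusted p = 0.6). It was -0.08 without LPS replicate 1 and -0.24 without LPS replicate 2.

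Among the deacetylases, Hdac1 (ENSMUSG00000028800, chr4:129516104-129542713, minus strand) was at 97.1, 92.6 and 94.8 FPKM in the LPS-labelled libraries, and at 95.5, 98.1 and 91.9 FPKM in the LPSKD-labelled ones. The LPSKD-labelled libraries held both the highest and the lowest value, and the groups overlapped. Its log2 fold change was 0.01 (SE 0.040, 95% interval -0.09 to 0.10, adjusted p = 0.964, limma), the narrowest interval of the set. Its spread between replicates was 2.83% of the mean, and counting error alone gives 1.71%.

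Hdac2 (ENSMUSG00000019777, chr10:36974544-37001889, plus strand) was at 136.8, 150.3 and 151.8 FPKM in the LPS-labelled libraries, and at 145.4, 138.8 and 144.0 FPKM in the LPSKD-labelled ones. The LPSKD values lay inside the range of the others. The fit gave a log2 fold change of -0.03 (SE 0.047, 95% interval -0.14 to 0.07, adjusted p = 0.769, limma), on 5138 to 5751 fragments per library.

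Hdac1 was below Hdac2 in all 6 libraries. The ratio of Hdac1 to Hdac2 was 0.709, 0.616 and 0.624 in the LPS-labelled libraries and 0.657, 0.706 and 0.638 in the LPSKD-labelled ones. The groups overlapped, at 0.650 ± 0.0517 and 0.667 ± 0.0352 (SD, n = 3 each). The log2 ratio differed by 0.04 (exact permutation test, two-sided, p = 0.6, adjusted p = 0.6), and without LPSKD replicate 2 the difference was -0.0021, of the opposite sign.

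**Figure D3:**
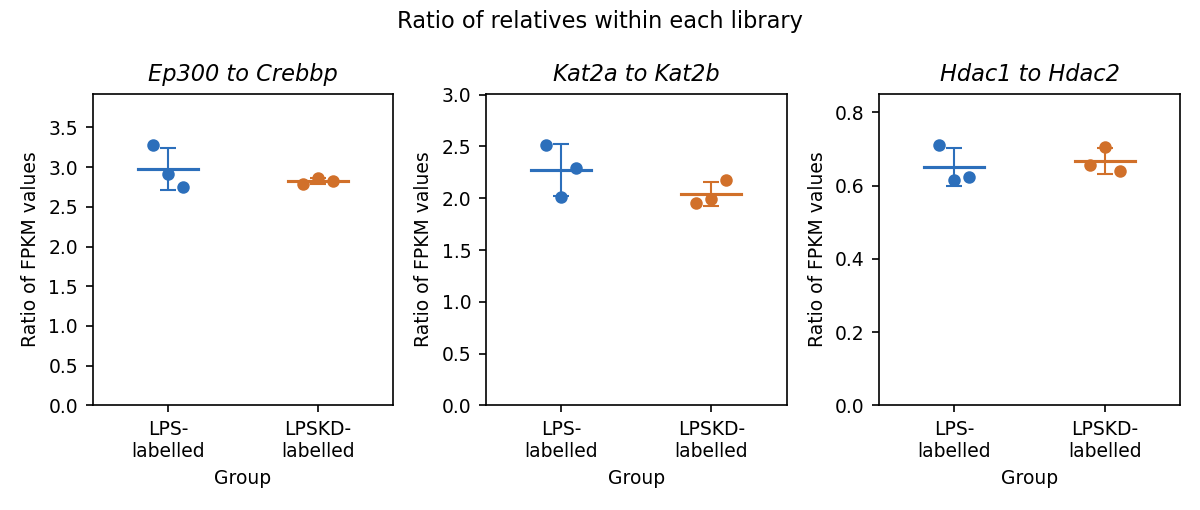
Each panel plots, from 0, the ratio of the FPKM values of a pair of relatives in each library, with the group mean and SD (n = 3). Ep300 exceeds Crebbp by 2.74 to 3.27 times, Kat2a exceeds Kat2b by 1.95 to 2.51 times and Hdac1 is at 0.616 to 0.709 of Hdac2, and the groups overlap in every panel.

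Hdac3 (ENSMUSG00000024454, chromosome 18, minus strand), the catalytic subunit of the NCoR/SMRT complex, was at 66.4, 63.5 and 69.3 FPKM in the LPS-labelled libraries, and at 57.4, 63.7 and 59.6 FPKM in the LPSKD-labelled ones. LPSKD replicates 1 and 3 were the lowest of the 6, but LPSKD replicate 2 lay just above LPS replicate 2, so the groups overlapped. The means were 66.4 ± 2.91 and 60.2 ± 3.17 FPKM (SD, n = 3 each). The log2 fold change was -0.14 (SE 0.053, 95% interval -0.26 to -0.02), with an unadjusted p of 0.0288 and an adjusted p = 0.227 in limma. Over the alternatives of the fit the value stayed between -0.18 and -0.11, and the adjusted p between 0.167 and 0.485.

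Sirt1 (ENSMUSG00000020063, chr10:63319005-63381704, minus strand), the NAD-dependent deacetylase, was at 16.95, 20.9 and 21.1 FPKM in the LPS-labelled libraries, and at 15.2, 16.7 and 16.2 FPKM in the LPSKD-labelled ones. All 3 LPS values were above all 3 LPSKD values, but LPS replicate 1 stood much closer to the LPSKD-labelled libraries than to the other 2 of its group. In fragments, LPS replicate 1 had 938 and the other 2 had 1154 and 1146, beside 846, 893 and 918 in the LPSKD-labelled libraries. The means were 19.6 ± 2.33 and 16.1 ± 0.738 FPKM (SD, n = 3 each). The log2 fold change was -0.28 (SE 0.093, 95% interval -0.50 to -0.07), with an unadjusted p of 0.0152 and an adjusted p = 0.166 in limma, so that the difference did not pass the test.

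The call on Sirt1 turned on 1 library. Without LPS replicate 1, the log2 fold change was -0.38 (SE 0.071, 95% interval -0.55 to -0.22) and the adjusted p = 0.0323 in limma, past the threshold. Without any other single library it lay between -0.31 and -0.23, and the adjusted p was between 0.246 and 0.384. With all 6 libraries and other processing the adjusted p lay between 0.0758 (voom on recovered fragments) and 0.258. Sirt1 also had the largest spread between replicates of the 9, at 9.67% of its mean, where counting error alone gives 3.19%. The interval leaves room for a level in the LPSKD-labelled libraries of 70.9% to 95.3% of that in the others.

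Ncoa3 (ENSMUSG00000027678, chr2:165992636-166073242, plus strand), the p160 coactivator, was at 25.6, 22.1 and 22.7 FPKM in the LPS-labelled libraries, and at 22.4, 22.6 and 24.4 FPKM in the LPSKD-labelled ones. LPS replicate 1 was the highest, LPS replicate 2 the lowest, and the LPSKD values lay between them. The fit gave a log2 fold change of -0.02 (SE 0.072, 95% interval -0.18 to 0.14, adjusted p = 0.920, limma).

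**Figure D4:**
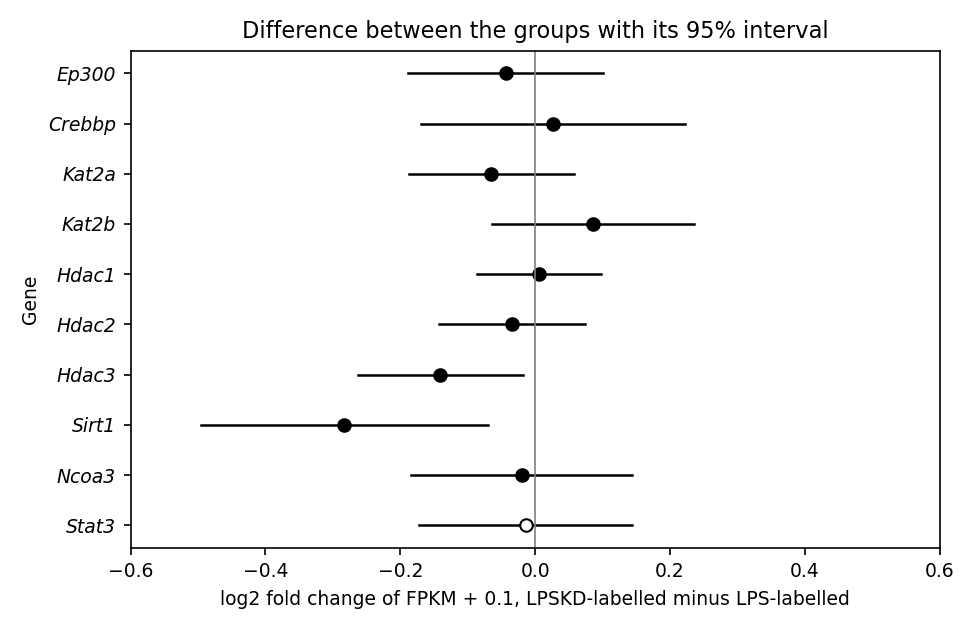
Points are the log2 fold changes of FPKM + 0.1, LPSKD-labelled minus LPS-labelled (n = 3 each), and lines are their 95% intervals from limma, for the 9 genes and Stat3 (open point). The intervals of Hdac3 (-0.26 to -0.02) and Sirt1 (-0.50 to -0.07) lie below 0, and the other 8 include 0. The intervals are not adjusted for the number of genes tested. Neither Hdac3 (adjusted p = 0.227, limma) nor Sirt1 (adjusted p = 0.166, limma) passed the threshold.

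Other genes of the acetylation system, and transcription factors that bind p300 and CBP, were taken from 10 lists. These held 133 genes in all, of which 127 were tested. Of the 127, 2 passed, Acss2 higher and Stat2 lower in the LPSKD-labelled libraries, or 1.57% against 3.23% of all genes. With 1 library left out, fewer of all genes passed too. The count in the lists was 0 without LPS replicate 3 (158 of all genes) or LPSKD replicate 2 (190). It was 1 without LPSKD replicate 1 (176) or LPSKD replicate 3 (168), 2 without LPS replicate 2 (288) and 3 without LPS replicate 1 (357). With all 6 libraries, 22 of the 127 had an unadjusted p under 0.05 (17.3% against 17.6% of all genes), 11 higher and 11 lower. Without the list of transcription factors, 1 of 114 (0.877%) passed.

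The enzymes and scaffolds nearest to the 9 cofactors gave no call. Of the 8 other lysine acetyltransferases none passed, and their median log2 fold change was -0.02. Hat1, which acetylates newly made histone H4, had the smallest p, at 66.7 ± 2.36 and 72.9 ± 3.41 FPKM (SD, n = 3 each, log2 fold change 0.13, adjusted p = 0.228, limma), and Taf1 of TFIID came next (-0.10, adjusted p = 0.438). Of the 6 p160 coactivators and their partners, which include the paralogs Ncoa1 and Ncoa2, none passed. Carm1, the arginine methyltransferase that p160 proteins recruit, was at 43.9 ± 2.62 and 48.1 ± 1.15 FPKM (log2 fold change 0.13, adjusted p = 0.249), and Med1, a Mediator subunit, had a log2 fold change of 0.05 (adjusted p = 0.726).

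Of the 3 CITED proteins, which bind p300 and CBP and compete with transcription factors for them, none passed. Cited2 was the most abundant, at 222.2 ± 6.09 and 207.4 ± 8.45 FPKM (SD, n = 3 each), and its log2 fold change was -0.10 (adjusted p = 0.254, limma). Cited1 was at 3.04 ± 1.69 and 4.53 ± 0.801 FPKM, on 28 to 90 fragments per library, and its log2 fold change of 0.68 had an SE of 0.342 (adjusted p = 0.351). It was 1.09 without LPS replicate 1 (adjusted p = 0.0546, limma) and 0.33 without LPS replicate 3 (adjusted p = 0.665). The median of this list, 0.42, rests on 3 genes and is the value of the remaining one. That gene had a mean of 0.515 FPKM, on 4 to 16 fragments per library, and an SE of 0.512.

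Of the 23 SAGA and ATAC subunits that surround Kat2a and Kat2b, 22 were tested and none passed, with a median log2 fold change of 0.01. The untested subunit was at 0 FPKM in all 6 libraries, and the reason was not tested. Eny2, a subunit of the deubiquitinase module of SAGA, had the smallest p of all genes in these lists that did not pass. It was at 95.6 ± 3.97 FPKM in the LPS-labelled libraries, and at 110.8 ± 5.93 FPKM in the LPSKD-labelled ones (SD, n = 3 each), without overlap (log2 fold change 0.21, adjusted p = 0.0707, limma). Tada3, an adaptor of the acetyltransferase module, was at 39.3 ± 2.98 and 33.8 ± 0.498 FPKM, also without overlap (log2 fold change -0.21, adjusted p = 0.1202). Without LPS replicate 1, the same library on which Sirt1 turned, Tada3 reached -0.28 with an adjusted p = 0.0312 in limma.

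On the deacetylase side, 7 of the 8 other deacetylases of classes I, II and IV were tested and none passed (median log2 fold change 0.02). Hdac8, the remaining class I enzyme, was at 10.9 ± 0.901 and 9.24 ± 1.06 FPKM (SD, n = 3 each, log2 fold change -0.24, adjusted p = 0.305, limma), and Hdac7 of class IIa had a log2 fold change of 0.09 (adjusted p = 0.612). None of the 6 other sirtuins passed (median 0.04). Sirt2, mainly a cytoplasmic deacetylase, had a log2 fold change of -0.13 (adjusted p = 0.322) and Sirt4, a mitochondrial sirtuin, 0.23 (adjusted p = 0.387).

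The corepressor complexes of Hdac1, Hdac2 and Hdac3 were measured through 40 subunits, all tested, and none passed (median log2 fold change 0.04). Mier1, which recruits Hdac1 and Hdac2, was at 23.9 ± 1.09 and 20.5 ± 0.0979 FPKM (SD, n = 3 each), without overlap (log2 fold change -0.22, adjusted p = 0.0858, limma). Ing1, a reader of methylated histone H3 in the Sin3 complex, was at 54.3 ± 2.81 and 59.7 ± 2.08 FPKM (0.14, adjusted p = 0.221). Of 15 readers of acetylated histones, 13 were tested and none passed (median 0.04). Brd9, a bromodomain protein of a BAF complex, had a log2 fold change of -0.20 (adjusted p = 0.175), and Mllt1, a YEATS-domain protein of the super elongation complex, 0.13 (adjusted p = 0.285).

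Of 11 genes for the supply of acetyl-CoA and NAD, 9 were tested and 1 passed. Acss2, which makes acetyl-CoA from acetate in the cytosol and nucleus, was at 9.57 ± 0.286 FPKM in the LPS-labelled libraries, and at 13.3 ± 0.702 FPKM in the LPSKD-labelled ones (SD, n = 3 each). The groups did not overlap, and the log2 fold change was 0.47 (SE 0.075, 95% interval 0.30 to 0.64, adjusted p = 0.0141, limma). The adjusted p rose above the threshold without LPS replicate 3 (0.0711), LPSKD replicate 2 (0.0648) or LPSKD replicate 3 (0.0757), with log2 fold changes of 0.44 to 0.46. The median of the list was 0.08.

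Of 13 transcription factors that bind p300 and CBP, 1 passed. Stat2, the subunit of the interferon-activated ISGF3 complex that binds p300 and CBP, was at 14.8 ± 0.996 FPKM in the LPS-labelled libraries and at 10.3 ± 0.651 FPKM in the LPSKD-labelled ones (SD, n = 3 each), without overlap. Its log2 fold change was -0.52 (SE 0.083, adjusted p = 0.0131, limma). The adjusted p was above the threshold without LPS replicate 3 (0.0680), LPSKD replicate 1 (0.0604) or LPSKD replicate 2 (0.0557). The median log2 fold change of the 13 was -0.01. The 95% intervals of Ep300 and Crebbp, beside this, excluded a change of 0.25 on the log2 scale in either direction.

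**Figure D5:**
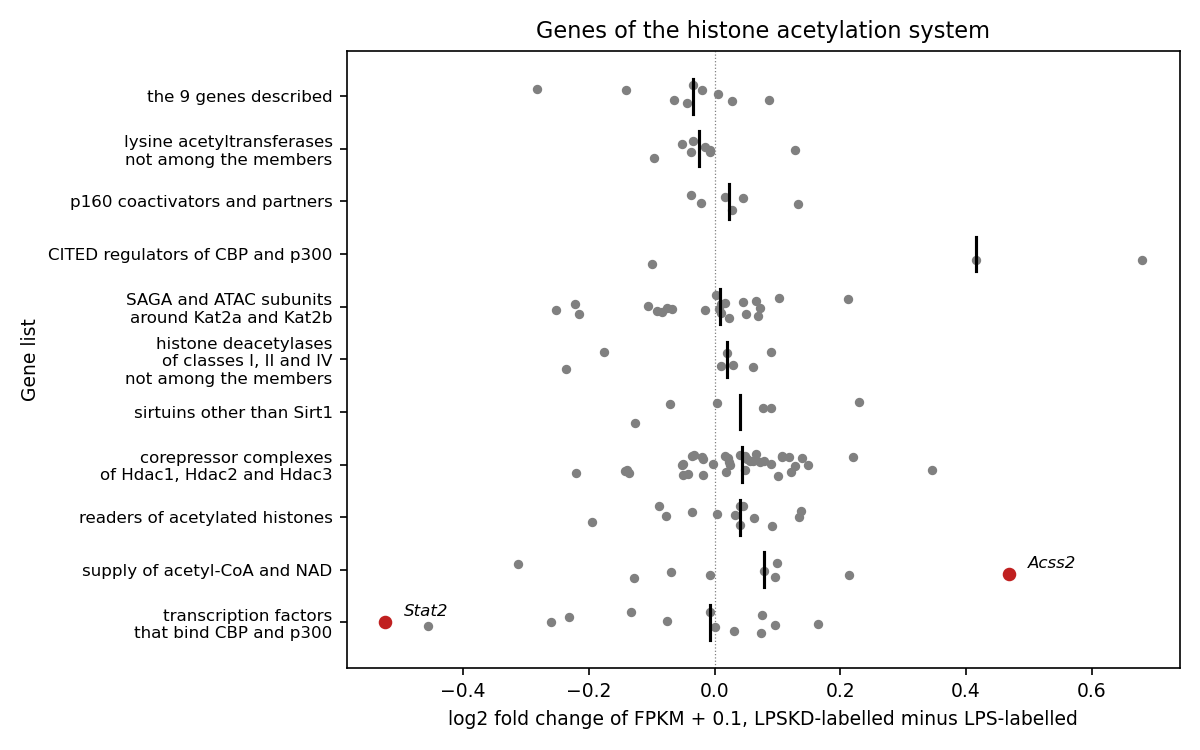
Each point is the log2 fold change of FPKM + 0.1 of 1 tested gene, LPSKD-labelled minus LPS-labelled, for the 9 genes described and the 10 lists, and black bars mark medians. The 2 red points with names, Acss2 at 0.47 and Stat2 at -0.52, are the genes with an adjusted p under 0.05.

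The genes whose pattern over the 6 libraries was most like that of Ep300, among 9350 other genes with a mean of at least 5 FPKM, were Rapgef1, Scd2 and Dhx38. The root mean square difference of their centred log2 values from those of Ep300 was 0.0107, 0.0117 and 0.0147, beside a median of 0.106 over all candidates. For Crebbp they were Pigb (0.0202), Mcrip1 (0.0213) and E2f1 (0.0216), beside a median of 0.107. None of these genes was common to the 2 paralogs. Because the nearest were picked from all candidates, distances far under the median follow from the choice. With 6 libraries these likenesses are a description only.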

How the data were processed

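Poly(A) RNA of 6 mTEC libraries (3 labelled LPS, 3 labelled LPSKD) was read as paired ends. The authors deposited 1 FPKM value per gene and library, without pooling. The submitters' processing notes name Bowtie 0.12.2, HISAT2 2.0 and StringTie 1.3.0 and the builds mm8 and GRCh38.p13, without saying which served the RNA-seq. Identifiers were matched to GENCODE M21 on GRCm38 (22399 of 22442), and Mideas was matched through its RefSeq synonym Elmsan1. Values of 16473 of 16837 genes above 0 (97.8%) were whole fragments (tolerance 0.05) once multiplied by library total and merged coding length (with 0 to 10 bases added). Counting errors given as a percentage cover counting only.

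Differences were tested with limma 3.58.1 in R 4.3.3 (lmFit, eBayes with trend, two-sided) on log2(FPKM + 0.1), leaving out genes whose mean was under 0.5 FPKM, with Benjamini-Hochberg adjustment over all genes and no covariates. Fold changes on this scale understate those of low genes. The fit was checked on simulated data. Ratios of relatives were tested over the 20 assignments of labels. Sharing was searched in stretches of 31 bases on both strands. The members and the gene lists were chosen with earlier results of these data known. A gene of the lists is not reported here and was left out of their counts and medians. By rule, the text names Stat3, all 9 members, from each list up to 6 genes past the threshold or else the 2 with the smallest p, and the 3 genes most like Ep300 and Crebbp. Sums used Python 3.11.15, numpy 2.4.6 and pandas 2.3.3, and figures matplotlib 3.10.9. Alternatives are given in the closing section.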

Additional observations from a re-analysis of the deposited data

How the results depend on the processing

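The 9 log2 fold changes and the counts were recomputed under 16 alternatives of the limma fit (pseudocounts of 1 and 0.01, filters at a mean of 1 and 0.1 FPKM and none, quantile normalization, centring on the library median, voom on recovered fragments, a replicate block, eBayes without trend, and the omission of each library). Of all genes, 140 passed without the trend, 213 with the replicate block and 582 with voom, and 158 to 357 with 1 library left out. Of the 9 cofactors, 0 passed under every alternative with all 6 libraries, and 0 to 1 with 1 left out. Of the other acetylation genes, 4 passed with voom and 0 to 3 with 1 library left out. Cofactors whose groups did not overlap numbered 2 of 9 after quantile normalization (23.5% of all genes) and 1 to 4 of 9 with 1 library left out (31.2% to 37% of all genes). Log2 fold changes near 0 changed sign: Hdac1 was at -0.01537 after quantile normalization and at -0.0164 to 0.02997 with 1 library left out, Ep300 at -0.09502 to 0.0047, Crebbp at -0.01021 to 0.08571, Ncoa3 at -0.06159 to 0.04325 and Stat3 at -0.06408 to 0.04437. Sirt1 ranged from -0.3848 to -0.2278. The log2 difference of the Hdac1 to Hdac2 ratio ranged from -0.00211 to 0.1044, that of Ep300 to Crebbp from -0.128 to -0.0011, and that of Kat2a to Kat2b from -0.2367 to -0.0770. The cause of these shifts was not tested. Leaving 1 library out also lowers the number of libraries in the fit.

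The replicate numbers gave no sign of pairing the libraries, though such values cannot show that no pairing was designed. Same-numbered libraries had correlations of their deviations from the group means of -0.0160, -0.0039 and -0.0426 over the genes tested. Differently numbered libraries had correlations of -0.0431 to 0.0578. With the replicate number as a block, Acss2 had an adjusted p of 0.0542 in limma and was no longer called, and no call on a cofactor changed. The median log2 fold change of all genes lay between -0.0079 and -0.0017 under every scaling tried. Each cofactor had 846 fragments or more per library. Counting error alone gives 1.35% to 3.19% of the mean, beside a spread between replicates of 2.83% to 9.67%.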
